A study of Mus musculus with 4 samples.

Results

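Chemokines and their receptors were followed across 4 arrays of mouse cells labelled as sorted ILC3s, group 3 innate lymphoid cells, which lack rearranged antigen receptors and make IL-22 at barrier surfaces. The genes were taken by name, as every gene of the deposited table whose symbol starts with Ccl, Cxcl, Xcl, Cx3cl, Ccr, Cxcr, Xcr, Cx3cr or Ackr followed by a digit. This gave 60 of 19504 genes, of which 38 encode ligands and 22 encode receptors. The rule reads names and no measured value, but it was chosen with earlier results of these data known. Each genotype has 1 array. The circZbtb20 pair set circZbtb20-/- mice, which lack a circular RNA made from the Zbtb20 gene, against circZbtb20+/+ mice. The Nr4a1 pair set Nr4a1-/- mice, which lack an orphan nuclear receptor induced early after lymphocyte stimulation, against Nr4a1+/+ mice. The cells of every group were sorted as lineage-negative, CD90 high and CD45 low. The tissue, strain, age, number of mice per array and the deleted stretch of each gene were not stated in the labels.

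Chemokines are small secreted proteins that guide migrating cells along concentration gradients. Their receptors span the membrane, couple to inhibitory G proteins and set where a lymphocyte goes, while atypical receptors bind chemokines without this signal and clear them. Families are named by the spacing of conserved cysteines, as CC, CXC, XC and CX3C. Inflammatory chemokines are induced by stimulation and call in effector cells, and homeostatic ones organise lymphoid tissue. In ILC3s, CXCR6, CCR6, CCR7 and CCR9 are known for positioning the cells in gut and lymphoid tissue, and activated innate lymphocytes themselves release chemokines.

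All values are deposited log2 values, and a difference is a log2 difference of deposited values, whose relation to RNA amount was not tested. A genotype with 1 array gives no replicate error, so the difference between the wild types, measured in the same way, stands beside them. A gene is called higher or lower when it differed by at least 1 on the log2 scale, which is 2-fold, and its higher value reached the median of that array over all rows (4.34 to 4.51). Wild-type values are given in the order circZbtb20 pair, Nr4a1 pair. The targeted gene Nr4a1 stood at 19.93 and 18.11 in the wild types. The circZbtb20 knockout had 15.98. The array labelled as the Nr4a1 knockout had 11.63, lower than the others but far above that array's median of 4.34. Whether the probes lie in the deleted stretch was not stated. Of 12 measured ILC3 markers, 12 reached the array median in each wild type and in the circZbtb20 knockout and 11 in the Nr4a1 knockout, with median levels of 15.74, 15.24, 16.9 and 6.55 in that order. Several ILC3 markers of the Nr4a1 knockout array go against its label, with Kit at 5.48, Rora at 5.59, Il23r at 4.73 and Ncr1 at 3.0. Others were high on it, with Tox at 16.42, Id2 at 15.48, Cd81 at 14.74 and Il7r at 13.4. Il22 was at 19.93, the ceiling of the table, as in both wild types. Against its own wild type 9 of the 12 were lower and 1 higher. The same array had Cd3e at 18.92, Cd8b1 at 18.73 and the thymocyte gene Dntt at 14.64. Its 13 measured T cell markers had a median level of 16.71, against 4.72 and 5.96 in the wild types and 5.30 in the circZbtb20 knockout. The log2 of their summed level was 20.86 there and 10.65 to 11.30 on the other arrays, and all 7 measured thymocyte markers were higher on it. This RNA and the Nr4a1 genotype therefore sit on the same single array and cannot be told apart.

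Each wild type had 41 of the 60 genes at or above its array median. The circZbtb20 knockout had 40 and the Nr4a1 knockout 25. Fewer ligands did so in the Nr4a1 knockout, with 15 of 38 against 27 to 29 on the other arrays. Receptors numbered 10 of 22 there, against 12 to 13 elsewhere. Across the 60 genes 23 reached the median on every array and 15 on none.

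**Figure D1:**
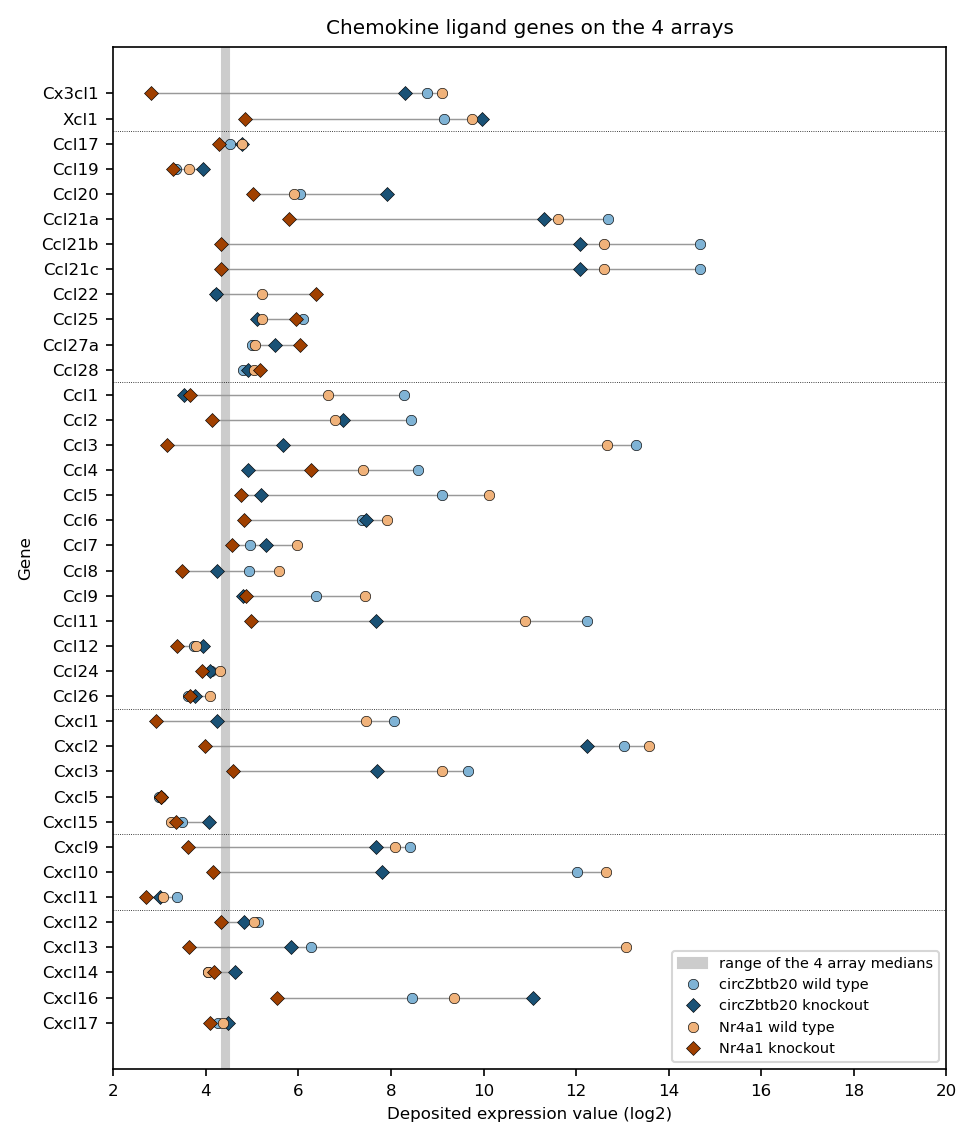
Deposited log2 values of the 38 ligand genes, 1 point per array, with light circles for the wild types, dark diamonds for the knockouts and a grey band for the range of the 4 array medians. Dotted lines separate the role groups, and the Nr4a1 knockout is the lowest point for Ccl3, Cxcl2, Cxcl10, Cx3cl1 and the Ccl21 genes.

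In the circZbtb20 knockout, inflammatory ligands were lower, while receptors were called in both directions. Ccl3, Ccl4 and Ccl5, inflammatory attractants of monocytes and T cells, and Ccl1, a ligand of CCR8, were all lower, together with the receptor Ccr8 itself. Ccr6, its ligand Ccl20, Cxcr3, Cxcr4 and Cxcl16 were higher. Against its own wild type 14 of 38 ligands (36.8%) were called lower and 2 higher, where the rule called 11.1% of all genes lower and 15.6% higher. Of the 22 receptors 4 (18.2%) were lower and 5 (22.7%) higher. The median difference was -0.40 for ligands and 0.10 for receptors, against 0.04 over all genes. When a gene also had to differ by at least 1 in the same direction from the other wild type, 9 ligands and 3 receptors were lower and 2 ligands and 5 receptors higher, where the background was 8.08% lower and 12.2% higher. In sorted bulk samples fewer cells of a type and less RNA per cell cannot be told apart.

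Of 13 inflammatory CC ligands, 7 were lower in the circZbtb20 knockout and 0 higher, with a median difference of -1.46. Ccl3 stood at 13.29 and 12.67 in the wild types and at 5.67 in the circZbtb20 knockout. The wild types differed by -0.62, so the difference of -7.62 was far outside theirs. Ccl4, encoded next to Ccl3, was at 8.58 and 7.39 in the wild types and at 4.92 in the knockout, which is a difference of -3.66. Ccl5 was at 9.10 and 10.12 in the wild types and at 5.19 in the knockout, which is a difference of -3.91. In each of these 3 genes the knockout lay below both wild types by more than the wild types lay apart.

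Ccl1 was at 8.29 and 6.63 in the wild types and at 3.53, under the array median, in the circZbtb20 knockout, a difference of -4.76. Ccl11, eotaxin, which attracts eosinophils through CCR3, was at 12.23 and 10.90 in the wild types and at 7.67 in the knockout, which is a difference of -4.56. For both genes the wild types differed by over 1 themselves, by -1.66 and -1.33. Ccl9, a ligand of CCR1, was at 6.38 and 7.43 in the wild types and at 4.80 in the knockout, which is a difference of -1.58. Ccl2, which attracts monocytes through CCR2, was at 8.43 and 6.80 in the wild types and at 6.97 in the knockout. Its difference of -1.46 became 0.17 against the other wild type, so its direction depended on the wild type used. Ccl6, another ligand of CCR1, showed a difference of 0.09. Macrophage RNA moved with this group as well, as 5 of 11 macrophage markers were lower against the own wild type and 10 of 11 against the other, with 0 higher, and its part in the result was not tested. ILC2 and NK markers moved too, with 6 of 8 and 8 of 10 lower. The log2 of the summed level of the ILC2 markers was 14.07 and 14.85 in the wild types and 8.24 in the knockout, and that of the NK markers was 15.39, 14.11 and 12.14. The part of such cells in the ligand values was not tested.

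Ligands of CXCR2, which call in neutrophils, and of CXCR3, which are induced by interferon, were lower in part. Cxcl1 was at 8.06 and 7.45 in the wild types and at 4.24, under the array median, in the circZbtb20 knockout, a difference of -3.82. Cxcl3 was at 9.67 and 9.11 in the wild types and at 7.69 in the knockout, which is a difference of -1.98. Cxcl2 was not called against its own wild type, at 13.04 and 13.57 in the wild types and at 12.24 in the knockout, which is a difference of -0.80. The other wild type gave -1.33, past the rule. Thus the 3 related genes did not move by the same amount on this array. Cxcl10 was at 12.03 and 12.65 in the wild types and at 7.80 in the knockout, which is a difference of -4.23. Cxcl9, its neighbour, showed a difference of -0.74, and Cxcl11, listed by RefSeq as a pseudogene in this mouse assembly, was under the array median on all 4 arrays.

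Among the homeostatic ligands of the circZbtb20 pair, 4 of 10 were lower and 1, Ccl20, was higher. Ccl20 was at 6.04 and 5.90 in the wild types and at 7.91 in the knockout, which is a difference of 1.87. The other wild type gave 2.01. Ccl21b, a ligand of CCR7 made by lymphoid stroma, was at 14.67 and 12.60 in the wild types and at 12.09 in the knockout. The wild types differed by -2.07, and the difference of -2.58 shrank to -0.51 against the other wild type. Ccl21c had the same values as Ccl21b on every array. These near-identical copies are not separate measurements, and both enter the counts. A further row of Ccl21b read 14.23 and 12.13 in the wild types, 11.65 in the circZbtb20 and 4.34 in the Nr4a1 knockout. Ccl21a behaved alike, with -1.38 and -0.32. Ccl25, a ligand of CCR9, was at 6.10 and 5.22 in the wild types and at 5.10 in the knockout, where the difference of -1.0 became -0.12. Without Ccl20, every call in this group therefore ended against the other wild type. Of 11 markers of stroma, endothelium and epithelium 4 were lower in the knockout and 2 higher, and the collagen gene Col3a1 differed by -3.34 against its own and by -1.36 against the other wild type.

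Cxcl16, a membrane-bound ligand of CXCR6, was at 8.45 and 9.36 in the wild types and at 11.06 in the circZbtb20 knockout, a difference of 2.61. Against the other wild type it was 1.70. It was the only one of the 5 other CXC ligands called in this comparison. Cxcl13, the ligand of CXCR5 that organises B cell follicles, was at 6.28 in its own wild type and 5.84 in the knockout but at 13.08 in the Nr4a1 wild type. The wild types thus lay 6.80 apart for Cxcl13, the widest gap between them among the 60 genes. Xcl1, which attracts cross-presenting dendritic cells through XCR1, differed by 0.82, and Cx3cl1, fractalkine, by -0.47.

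**Figure D2:**
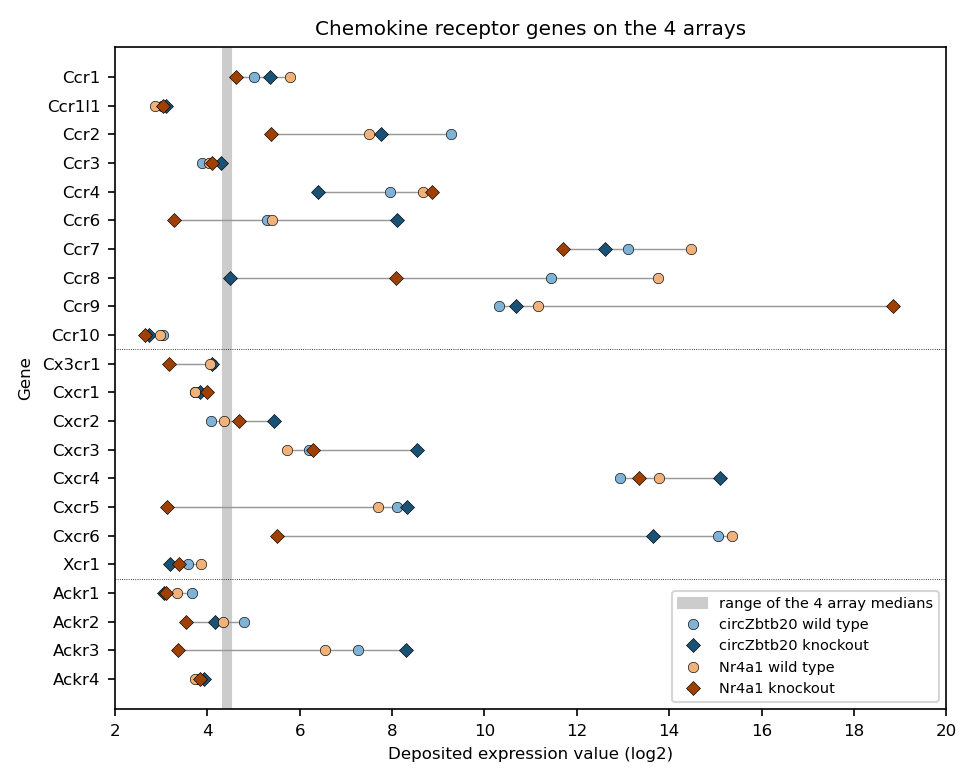
Deposited log2 values of the 22 receptor genes, 1 point per array, drawn as in the plot of ligand values. Ccr8 is lowest in the circZbtb20 knockout at 4.50, Cxcr6 is lowest in the Nr4a1 knockout at 5.50, and Ccr9 is highest in the Nr4a1 knockout at 18.84.

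Of the 10 CC receptors, 3 were lower and 1 higher in the circZbtb20 knockout. Ccr8, the receptor of CCL1, known on type 2 and regulatory lymphocytes, was at 11.43 and 13.75 in the wild types and at 4.50 in the knockout. Its differences of -6.93 and -9.25 both exceeded the 2.32 between the wild types. ILC2 markers were lower on the same array in 6 of 8 cases, with a median of -3.72, and their part in the Ccr8 value was not tested. Ccr4, the receptor of CCL17 and CCL22, was at 7.96 and 8.66 in the wild types and at 6.40 in the knockout, which is a difference of -1.56. Ccr2 was at 9.28 and 7.50 in the wild types and at 7.76 in the knockout, where -1.52 became 0.26 against the other wild type. Ccr6 went the other way, at 5.30 and 5.40 in the wild types and at 8.11 in the knockout, which is a difference of 2.81. The wild types were within 0.10 of each other for Ccr6.

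Among CXC receptors 3 were higher in the circZbtb20 knockout. Cxcr3, the receptor of interferon-induced ligands, was at 6.21 and 5.72 in the wild types and at 8.55 in the knockout, which is a difference of 2.34. Cxcr4, the receptor of CXCL12, was at 12.93 and 13.77 in the wild types and at 15.11 in the knockout, which is a difference of 2.18. Cxcr2, the neutrophil receptor of CXCL1 to CXCL3, was low throughout, at 4.08 and 4.36 in the wild types and 5.44 in the knockout. Its difference of 1.36 starts from values under the array medians. Cxcr6 was at 15.06 and 15.35 in the wild types and at 13.66 in the knockout, which is a difference of -1.40, beyond the 0.29 between the wild types. Ackr3, an atypical receptor that takes up CXCL12, was at 7.27 and 6.55 in the wild types and at 8.30 in the knockout, which is a difference of 1.03. Ccr7, Ccr9 and Cxcr5 were not called against the own wild type, with -0.50, 0.37 and 0.22. Against the other wild type Ccr7 differed by -1.88, which is past the rule, where the wild types differed by 1.38.

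In the Nr4a1 knockout most measured ligands were lower, and the receptors split between a single gene that was far higher, Ccr9, and several that were lower, led by Cxcr6. Against its own wild type 22 of 38 ligands (57.9%) were called lower and 1 higher, where 11.9% of all genes were called lower and 18.3% higher. Of 22 receptors 8 (36.4%) were lower and 1 higher. The median difference was -2.33 for ligands and -0.45 for receptors, against 0.00 over all genes. With the other wild type added to the rule, 21 ligands and 7 receptors were lower and 1 of each higher, where the background was 8.72% lower and 15.6% higher. Every value of this comparison comes from the array high in T cell markers, on which the median ILC3 marker differed by -4.45.

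**Figure D3:**
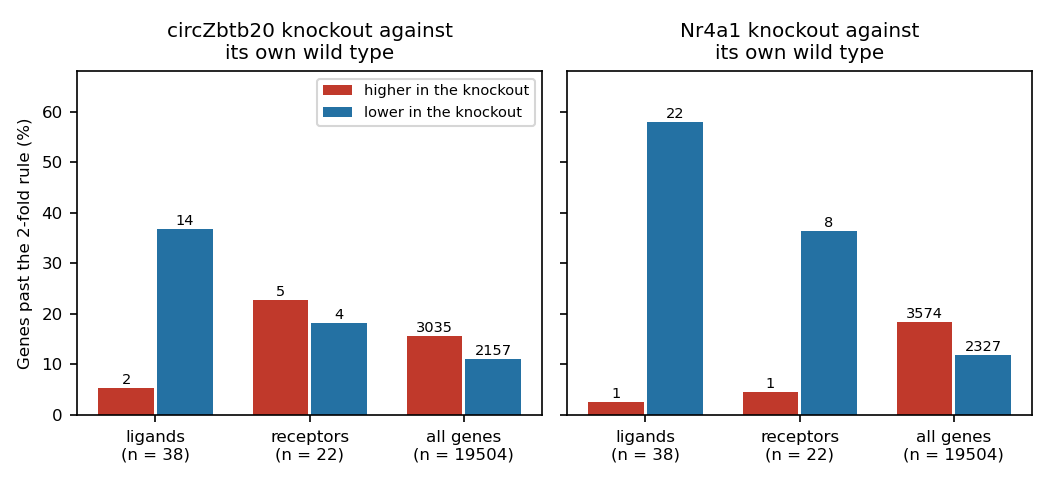
Percent of genes called higher (red) or lower (blue) in each knockout against its own wild type, for ligands, receptors and all genes, with the number of genes above each bar. Ligands called lower reached 36.8% in the circZbtb20 knockout and 57.9% in the Nr4a1 knockout, beside 11.1% and 11.9% of all genes.

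Inflammatory CC ligands were lower in the Nr4a1 knockout in 10 of 13 cases and higher in 0, with a median difference of -2.56. Ccl3 was at 3.16, under the array median, against 12.67 in its own wild type, a difference of -9.51. Ccl5 was at 4.75 against 10.12, a difference of -5.37, and Ccl11 at 4.98 against 10.90, a difference of -5.92. Ccl4, in contrast, was at 6.27 against 7.39, a difference of -1.12, so the neighbours Ccl3 and Ccl4 differed by very unequal amounts on this array. Ccl1, at 3.66 against 6.63, differed by -2.97. Ccl6, at 4.83 against 7.92, differed by -3.09. Ccl2, Ccl9 and Ccl8, an agonist of mouse CCR8, had differences of -2.67, -2.56 and -2.09. Ccl7 was called against its own wild type alone, with -1.41 and then -0.39. Ccl12, Ccl24 and Ccl26 were under the median on every array and were not called. Of 11 macrophage markers 8 were lower and 1, Ly6c2, higher. ILC2 markers were lower in 6 of 8 cases, with a median of -4.56, and NK markers in 7 of 10, with 0 higher in either list. The part of such cells in these values was not tested.

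Neutrophil and interferon-induced ligands were lower by wide margins in the Nr4a1 knockout. Cxcl2 was at 3.98, under the array median, against 13.57 in its own wild type, a difference of -9.59. Cxcl1 was at 2.92 against 7.45, a difference of -4.53, and Cxcl3 at 4.59 against 9.11, a difference of -4.52. Cxcl5 and Cxcl15, the other CXCR2 ligands, were under the median on all arrays. Cxcl10 was at 4.16 against 12.65, a difference of -8.49, and Cxcl9 at 3.62 against 8.08, a difference of -4.46. Between the wild types none of these 5 called genes differed by more than 0.62 in size.

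Of the 10 homeostatic ligands 3, the Ccl21 genes, were lower in the Nr4a1 knockout and 1 was higher. Ccl21b was at 4.32 against 12.60 in its own wild type, a difference of -8.28, and Ccl21a at 5.80 against 11.62, a difference of -5.82. Markers of stroma, endothelium and epithelium were lower in 10 of 11 cases on this array, with a median of -2.42, and their part in the Ccl21 values was not tested. Cxcl13 was at 3.63 against 13.08, a difference of -9.45, which was -2.65 against the other wild type. Cxcl16 was at 5.54 against 9.36, a difference of -3.82. Cx3cl1 was at 2.82 against 9.11, a difference of -6.29, and Xcl1 at 4.84 against 9.75, a difference of -4.91. Ccl20 was not called, with -0.88. The ligand called higher was Ccl22, a ligand of CCR4, at 6.39 against 5.21. Its difference was 1.18, and the other wild type gave 2.16. Ccl27a, a ligand of CCR10, was close to a call at 0.98.

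Ccr9, the receptor of CCL25 carried by thymocytes and gut-homing lymphocytes, was at 18.84 in the Nr4a1 knockout, against 10.32 and 11.16 in the wild types and 10.69 in the circZbtb20 knockout. Its difference of 7.68 stood beside a median of 9.37 for the 13 T cell markers, and 6.46 for the 7 thymocyte markers, on the same array. The remaining 3 arrays lay within 0.84 of each other. Cxcr6 was at 5.50 against 15.35 in its own wild type, a difference of -9.85. On the same array the 12 ILC3 markers ran from -12.88 for Kit to 4.38 for Tox, with 9 lower, 1 higher and a median of -4.45. Cxcr5, known on lymphoid tissue inducer cells and B cells, was at 3.12 against 7.69, a difference of -4.57. Ccr8 was at 8.08 against 13.75, a difference of -5.67. ILC2 markers had a median difference of -4.56 on the same array, and their part in the Ccr8 value was not tested.

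Further receptors were lower by smaller amounts. Ackr3 was at 3.37 against 6.55, a difference of -3.18. Ccr7, which guides cells to lymph nodes, was at 11.70 against 14.48, and its difference of -2.78 was -1.40 against the other wild type. Since the wild types differed by 1.38 for Ccr7, only a part of that difference lies outside theirs. Ccr6 was at 3.28 against 5.40, a difference of -2.12, and Ccr2 at 5.38 against 7.50, likewise -2.12. Ccr1 was called against its own wild type alone, with -1.18 and then -0.39. Receptors that were not called included Cxcr4 at -0.42, Cxcr3 at 0.57 and Ccr4 at 0.21. Thus Cxcr4 and Ccr4, at 13.35 and 8.87 in the Nr4a1 knockout, stayed within 1 of both wild types on an array where Cxcr6 and Ccr9 lay far outside them.

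**Figure D4:**
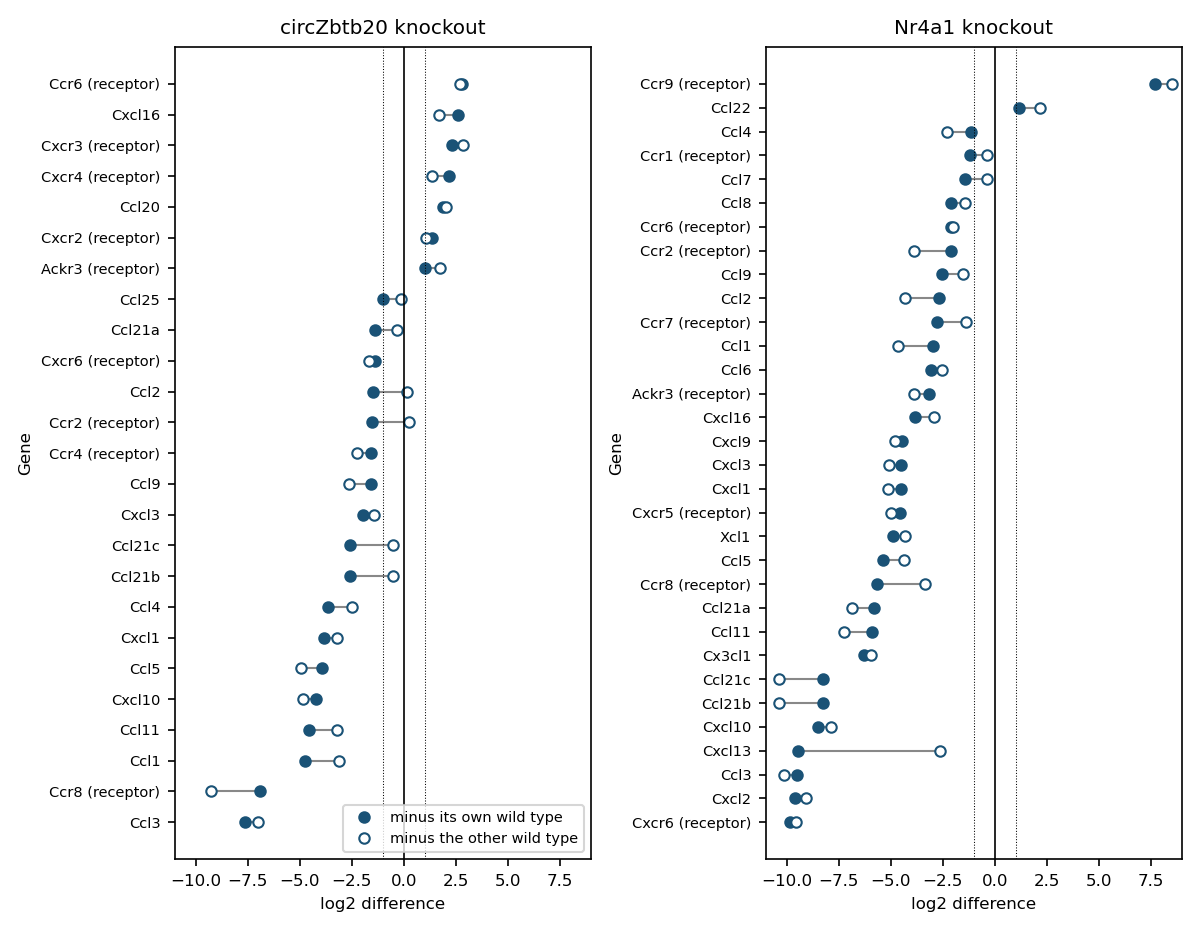
Log2 differences of the 25 genes called in the circZbtb20 knockout (left) and the 32 called in the Nr4a1 knockout (right), with filled points against the paired wild type and open points against the other wild type. Dotted lines mark a difference of 1 in either direction, and Ccl2 and Ccr2 on the left are the genes whose points lie on opposite sides of 0.

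The wild types showed how far these genes can differ without a knockout. Between them 8 of the 60 genes were called lower in the Nr4a1 wild type and 6 higher, where the rule called 3.71% and 4.65% of all genes. Lower were Ccl1, Ccl2, Ccl4, Ccl11, the 3 Ccl21 genes and Ccr2, and higher were Ccl5, Ccl7, Ccl9, Cxcl13, Ccr7 and Ccr8. The members' shares, 13.3% and 10.0%, were thus above the background here too. Of the 11 markers of stroma, endothelium and epithelium 4 were higher and 3 lower in the Nr4a1 wild type, from -1.98 for Col3a1 to 2.67 for Epcam. The 11 macrophage markers had 6 higher, 0 lower and a median difference of 1.34.

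Each knockout compared with its own wild type uses different arrays, so the calls can be set side by side. Of the 18 members lower in the circZbtb20 knockout and the 30 lower in the Nr4a1 knockout, 16 were shared, which is 88.9% of the smaller list and 53.3% of the larger. In the Nr4a1 knockout 30 of all 60 members were lower, and 42 of the 60 reached the array median on at least 1 array of that pair. The rest could not be called, so these shares depend in part on the filter. Over all genes 635 were lower in both, 29.4% of those lower in the circZbtb20 knockout and 27.3% of those lower in the Nr4a1 knockout. The shared genes were 13 ligands, from Ccl1, Ccl3 and Ccl5 to Cxcl1, Cxcl3 and Cxcl10, and the receptors Ccr2, Ccr8 and Cxcr6. Of the 16, Ccl2, the 3 Ccl21 genes and Ccr2 were not lower in the circZbtb20 knockout by the rule when the other wild type was used. No member was higher in both, where only 7 and 2 members were called higher in the circZbtb20 and Nr4a1 knockouts. Over all genes 1024 were higher in both, which is 33.7% and 28.7% of those higher in each. Of the 60 members 3 were called in opposite directions, where 1148 of all 19504 genes were. They were Ccr6, Cxcl16 and Ackr3, each higher in the circZbtb20 knockout and lower in the Nr4a1 knockout. The circZbtb20 call of Ackr3 ended under quantile normalization, at 0.66. Nr4a1 itself was lower in both knockouts, with -6.48 in the Nr4a1 pair. In the circZbtb20 pair its wild type stood at the ceiling of the table, so the -3.95 there is a bound and the difference may be wider.

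Receptors and their ligands did not move in 1 pattern. In the circZbtb20 knockout Ccr8 and its ligand Ccl1 were both lower (-6.93 and -4.76), and Ccr6 and its ligand Ccl20 were both higher (2.81 and 1.87). Cxcr6 and its ligand Cxcl16 went opposite ways (-1.40 and 2.61), as did Cxcr3 and its ligand Cxcl10 (2.34 and -4.23). Cxcr4 was higher by 2.18 while its ligand Cxcl12, at 4.82 to 5.12 on the 3 arrays other than the Nr4a1 knockout, differed by -0.30. In the Nr4a1 knockout Cxcr6 and Cxcl16 (-9.85 and -3.82), Cxcr5 and Cxcl13 (-4.57 and -9.45), Ccr7 and Ccl21b (-2.78 and -8.28) and Ccr8 and Ccl1 (-5.67 and -2.97) were lower together. Ccr9 was higher by 7.68 and Ccl25 differed by 0.73. Xcr1 and Cx3cr1, the receptors of Xcl1 and Cx3cl1, were under the array median on all 4 arrays. Of the ligands, Xcl1 stood above it on all 4 arrays and Cx3cl1 on 3, being under it in the Nr4a1 knockout at 2.82.

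Members called in neither comparison numbered 22, made of 13 ligands and 9 receptors. Of these, 15 were under the median on every array, at 2.65 to 4.31, where the rule makes no call. They were Ccl12, Ccl19, Ccl24, Ccl26, Cxcl5, Cxcl11, Cxcl15, Ccr3, Ccr10, Ccr1l1, Cxcr1, Xcr1, Cx3cr1, Ackr1 and Ackr4. The other 7, which reached the median on at least 1 array, were Ccl17, Ccl27a, Ccl28, Cxcl12, Cxcl14, Cxcl17 and Ackr2, with differences of -0.80 to 0.98. Granulocyte and mast cell markers were likewise low, with 1 to 4 of 9 at or above the array median.

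Chemokine genes named outside the pattern included a further receptor with wide differences. Ccrl2, which binds chemerin and presents it without signalling, was at 14.06 and 14.19 in the wild types, 10.19 in the circZbtb20 knockout and 3.73 in the Nr4a1 knockout. Its differences were -3.87 and -10.46, against 0.13 between the wild types. Cklf, a chemokine-like factor, was higher in both knockouts, by 4.17 and 1.30. The platelet chemokine Pf4 differed by 0.81 and -1.58, and Ppbp was under the median on every array.

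The machinery that carries the receptor signal to the cytoskeleton was counted against the background over all genes, 15.6% higher and 11.1% lower in the circZbtb20 knockout and 18.3% and 11.9% in the Nr4a1 knockout. Of 29 measured genes from G proteins to Rac and Rap, the circZbtb20 knockout had 5 higher and 8 lower, with a median difference of -0.24. Vav1, an exchange factor for Rac, was higher by 3.18 and Ptk2b, a focal adhesion-related kinase, by 2.57, while the kinase Akt1 was lower with -3.53. The Nr4a1 knockout had 13 higher and 6 lower, and the median was 0.90. Coro1a, an actin regulator of lymphocytes, was higher by 5.33 and Vav1 by 5.09, and Jak2 was lower with -6.20. All 13 T cell markers were higher on that array too, and their part in these values was not tested.

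Genes that switch receptors off or modify them gave 3 higher and 2 lower of 15 in the circZbtb20 knockout, near that background, and 5 higher and 6 lower in the Nr4a1 knockout. Tpst2, which adds the tyrosine sulfate that helps chemokine receptors bind their ligands, was at 7.20 and 7.81 in the wild types and at 11.31 in the circZbtb20 knockout, a difference of 4.11. Tpst1, its relative, was higher there by 1.57, and Rgs10 was lower with -2.12. Rgs1, an inhibitor of G protein signals from chemokine receptors, was at 18.52 and 18.50 in the wild types, 17.97 in the circZbtb20 knockout and 8.40 in the Nr4a1 knockout. Its difference of -10.10 in the Nr4a1 pair was followed by -7.55 for Rgs2 and -4.85 for the arrestin Arrb1.

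Chemokine genes lie in clusters, and neighbours were compared by their order in RefSeq's GRCm38.p6 table, with at most 3 other genes between them. The run of Ccl5, Ccl9, Ccl6, Ccl3 and Ccl4 had 4 of 5 genes lower in the circZbtb20 knockout, with differences from -7.62 to 0.09, and 5 of 5 lower in the Nr4a1 knockout, from -9.51 to -1.12. In the run of Ccl2, Ccl7, Ccl11, Ccl12, Ccl8 and Ccl1, 3 of 6 were lower in the circZbtb20 knockout and 5 of 6 in the Nr4a1 knockout. The receptor run of Ccr9, Cxcr6, Xcr1, Ccr1, Ccr1l1, Ccr3 and Ccr2 spanned from -9.85 for Cxcr6 to 7.68 for its neighbour Ccr9 in the Nr4a1 knockout.

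RefSeq windows from 250 bases before to 50 bases after a gene's start were at hand for 45 of the 60 genes, in 49 windows, and were searched on both strands for 4 motifs. The NF-kB core GGANTTTCC was found in 5 of 49 windows (10.2%), against 1.25% of all 32851 windows. Of the 5, 4 belong to ligands, Cxcl1, Cxcl2, Cxcl3 and Cxcl10, and the fifth to Ccr3. The related genes Cxcl1, Cxcl2 and Cxcl3 lie in 1 run of neighbours on chromosome 5 and share the letters GGAATTTCC. Their windows may therefore not be separate cases. The 4 ligands were lower in the Nr4a1 knockout, as were 57.9% of all ligands. The core was in 4 of the 21 windows of members lower there against both wild types. Shown are 120 bases of each of these ligand promoters, from 170 to 51 bases before the start, with capitals for the NF-kB core and, in Cxcl10, for the AP-1 motif TGANTCA. All 4 are from the GRCm38.p6 build and are written 5′ to 3′ on the strand of the gene.
Cxcl1, chr5:90891075-90891194, plus strand: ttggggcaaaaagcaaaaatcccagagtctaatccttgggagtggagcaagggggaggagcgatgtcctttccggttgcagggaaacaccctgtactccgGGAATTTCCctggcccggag
Cxcl2, chr5:90903729-90903848, plus strand: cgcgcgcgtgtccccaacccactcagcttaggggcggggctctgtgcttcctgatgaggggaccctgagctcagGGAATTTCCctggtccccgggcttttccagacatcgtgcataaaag
Cxcl3, chr5:90785931-90786050, plus strand: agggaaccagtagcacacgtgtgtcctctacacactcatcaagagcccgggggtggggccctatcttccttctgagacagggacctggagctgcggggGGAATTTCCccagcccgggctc
Cxcl10, chr5:92348940-92349059, minus strand: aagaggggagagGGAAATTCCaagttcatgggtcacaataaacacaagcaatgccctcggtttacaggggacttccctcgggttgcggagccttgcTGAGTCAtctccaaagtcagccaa

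In these stretches the core begins 70 bases before the start in Cxcl1, 96 in Cxcl2 and 72 in Cxcl3, and 158 in Cxcl10. The Nr4a1 knockout differences of these 4 genes were -4.53, -9.59, -4.52 and -8.49, and those of the circZbtb20 knockout -3.82, -0.80, -1.98 and -4.23. Cxcl2 holds the same core as Cxcl1, and its circZbtb20 difference of -0.80 was -1.33 against the other wild type. Any part of the core in these differences was not tested. The AP-1 motif was found in 8 of 49 windows (16.3%) against 7.81% of all. The NR4A element AAAGGTCA, to which NR4A receptors bind, was found in 1 of 49 windows (2.04%), that of Ccl6, against 1.51% of all. The shorter core AGGTCA, which also serves ROR receptors and lies within the NR4A element, was in 13 of 49 (26.5%) against 16.3% of all. Windows of Ccl3, Ccl6, Ccl20, Ccl22, Ccl25, Ccr6, Cxcl9, Cxcl13 and Cxcr2, each called in at least 1 comparison, held AGGTCA. So did windows of Ackr1, Ccl17, Ccl27a and Cxcl14, called in neither. Of all 60 members 38 were called in at least 1 comparison. A match describes letters and not binding, and these windows hold no distant enhancers.

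Treating both wild types as 1 group allowed a limma fit, with 1 residual degree of freedom and the assumption that each lone knockout varies as the wild types do. Of the 60 members, 45 reached the median on at least 1 array and entered the fit of such genes. Over the 12232 genes that reached the median on at least 1 array, 11 members were called in the circZbtb20 knockout at an adjusted p under 0.05, beside 13.6% of all genes, and 23 in the Nr4a1 knockout, beside 23.8%. In the circZbtb20 knockout they were Ccl1, Ccl3, Ccl4, Ccl5, Ccl11, Cxcl1, Cxcl10 and Ccr8, lower, and Ccl20, Ccr6 and Cxcr3, higher. Ccl3 had a limma difference of -7.31 ± 0.48 (SE, adjusted p = 0.0196) and Ccr6 one of 2.76 ± 0.42 (SE, adjusted p = 0.0280). In the Nr4a1 knockout Ccr9, at 8.10 ± 0.53 (SE, adjusted p = 0.00302), was the one member called higher and Cxcr6 was at -9.71 ± 0.43 (SE, adjusted p = 0.00188). Fitted over all 19504 genes, limma called 0.0% of all genes in the circZbtb20 knockout and hence 0 members, with 4681 genes and 19 members at an unadjusted p under 0.05. In the Nr4a1 knockout it called 11.2% of all genes and 20 members. With a prior that follows mean level, it called 229 and 1853 of all genes and 1 and 19 members.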

How the data were processed

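Each of the 4 samples was measured on 1 Affymetrix array. The deposited log2 values come from the authors, and the submitters' processing notes name RMA and Affymetrix Power Tools. RMA subtracts background, aligns the arrays' distributions and summarises probes. Their versions, settings and genome build were not stated. The series design text names another Affymetrix mouse array than the probe table used for naming. Of 22205 rows, 19571 had 1 gene symbol and 2634 none; where a gene had several rows (55 genes), the brightest by mean was kept, leaving 19504 genes. All 60 members kept their symbol in RefSeq's GRCm38.p6 table, of which 45 had a promoter sequence. No member reached the highest value, 19.93, a ceiling shared by 3 to 25 rows per array. RMA aligns arrays, so a change in total RNA cannot be seen, and values near the median depend on background. The number of arrays limits the precision.

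Differences, calls and counts were computed in Python 3.11.15 with pandas 2.3.3, and the limma 3.58.1 fit in R 4.3.3 with Benjamini-Hochberg adjustment over the genes fitted. Both were tested on simulated data with known differences. The members and lists were chosen with earlier results of these data known. Members called against both wild types were to be given with all values, up to 25 per comparison, and others by count, range or as partners of a named gene. For the Nr4a1 knockout most were given with the values of that pair alone, and some by their difference alone. From each other list up to 3 genes past the rule were to be named. More than 3 ILC3 markers were named. Tpst1 and Ppbp were named after their values were seen. Filters, scalings, baselines and thresholds were varied.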

Additional observations from a re-analysis of the deposited data

How the results depend on the processing

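Quantile normalization, centring each array on its median and averaging a gene's rows changed few calls. Of the 25 members called in the circZbtb20 knockout, 24, 24 and 25 were still called in the same direction, the exceptions being Ackr3 and Ccl25, and of 32 in the Nr4a1 knockout 32, 31 and 32 were, the exception being Ccl4. Centring moved the median of all genes to 0.14 and 0.17. Against the other wild type 19 of 25 and 30 of 32 were still called, and Ccl2 (0.17) and Ccr2 (0.26) reversed in the circZbtb20 knockout. Called only against the other wild type were Ccl8 (-1.33), Cxcl2 (-1.33), Cxcl13 (-7.24) and Ccr7 (-1.88) in the circZbtb20 knockout. In the Nr4a1 knockout these were Ccl20 (-1.02), Ackr2 (-1.26) and Ccl27a (1.04). With a log2 difference of at least 2, the circZbtb20 calls were 1 ligand higher and 9 lower and 3 receptors higher and 1 lower, the Nr4a1 knockout had 0 ligands higher, and the wild types gave 4 calls in place of 14. The Nr4a1 knockout's single higher ligand became 2 against the other wild type, the mean of the wild types or after centring, and 0 with a filter at the 75th percentile, where 5 receptors were lower. limma called 11 members in place of 25 in the circZbtb20 knockout, and 11 with a prior that follows mean level. Over all genes it called 0 genes, 0 of them members, in the circZbtb20 knockout (229 and 1 with that prior), and 20 members in place of 32 in the Nr4a1 knockout. These last fits were chosen after seeing the data. The fit over all genes included 19504 genes in place of 12232, and limma's prior degrees of freedom were 2.54 in place of 3.83. No array could be left out, since each genotype has 1. No paired analysis was possible because each genotype has 1 array.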
